A study of Homo sapiens with 2 samples.

Results

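Occupancy of the PEA3 genes *ETV1*, *ETV4* and *ETV5* by the transcriptional repressor Capicua (CIC) was examined in PNT2 cells, which derive from normal human prostate epithelium and were immortalized. Chromatin immunoprecipitation followed by sequencing (ChIP-Seq) had been performed in these cells with a CIC antibody (1 library) and with non-specific IgG as the control (1 library). Both libraries came from unmodified PNT2 cells grown in serum, and PNT2 is a single cell line, so there was no spread between cultures or donors to set a difference against. The authors deposited 178 regions of CIC over IgG, and gave for each its coordinates, its fold enrichment and its significance. A region was taken as a PEA3 region if its summit, the base with the highest read pileup, lay on chromosome 7 at 13.88 to 14.08 Mb (*ETV1*), on chromosome 17 at 41.55 to 41.71 Mb (*ETV4*) or on chromosome 3 at 185.45 to 185.88 Mb (*ETV5* and the neighbouring *IGF2BP2* side), in the build hg19 (GRCh37) that the submitters' notes name. Of the 178 regions, 7 met this rule, with 3 at *ETV1*, 1 at *ETV4* and 3 in the *ETV5* window. Each gene thus had at least 1 region. The rule used position alone, and the windows were set with results of these data known.

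CIC is an HMG-box protein that binds octamers of the form TGAATGAA or TGAATGGA and represses the genes beside them. Signalling through receptor tyrosine kinases and the MAPK pathway phosphorylates CIC and relieves that repression. *ETV1*, *ETV4* and *ETV5* encode closely related activators of the ETS family, which bind DNA through a GGAA core, and they are among the best known CIC targets. In the prostate, *ETV1*, *ETV4* and *ETV5* can be activated by gene fusions in cancer. ERF, the second repressor of the study, is itself an ETS factor that recognises GGAA.

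The RefSeq promoter table (GRCh38.p14) held 6 windows for *ETV1* and 2 for *IGF2BP2*. No window was matched for *ETV4* or *ETV5*. The 6 windows of *ETV1*, gene ID 2115, belong to different annotated transcript starts and partly overlap. The 250 bases before the outermost of these starts are shown because they hold the CIC octamer of this promoter. They lie at chr7:13991426-13991675 of GRCh38.p14 on the minus strand, and capitals mark the octamer TGAATGGA and every GGAA, which reads TTCC where it is on the opposite strand.

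ETV1 promoter, 250 bases: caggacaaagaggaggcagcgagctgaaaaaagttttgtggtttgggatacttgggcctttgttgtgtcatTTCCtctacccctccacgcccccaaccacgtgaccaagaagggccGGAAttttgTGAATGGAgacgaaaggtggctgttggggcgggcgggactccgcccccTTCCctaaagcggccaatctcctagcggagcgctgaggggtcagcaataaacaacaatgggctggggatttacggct

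The octamer occupied bases 126 to 133 of this window and began 125 bases before the transcript start. GGAA occurred 3 times, once on the shown strand 5 bases before the octamer and on the opposite strand at bases 72 to 75 and 174 to 177. No GGAA overlapped the octamer. Any of the 4 octamers searched (TGAATGAA, TGAATGGA, TCAATGAA and TCAATGGA, on both strands) was found in the 250 bases before the start in 3.17% of 34943 annotated promoter windows, and TGAATGGA alone in 0.818%. GGAA was found in 92.7% of them, with a median of 3 occurrences. Of the 6 *ETV1* windows, 1 held an octamer and 6 held GGAA, with 3 to 5 occurrences. The stretch with 2 GGAA cores in tandem is shown because it lies in both of the *ETV1* windows with the most GGAA, 5 each, whose transcript starts are 4 bases apart. It lies at chr7:13990888-13990917 of GRCh38.p14 on the minus strand, with the GGAA cores in capitals.

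ETV1 tandem GGAA, 30 bases: gttctatttaaGGAAGGAAactttcaaata

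Its cores began 200 and 196 bases before the transcript start of the first of these windows, and 204 and 200 bases before that of the other. A count of 5 or more GGAA was found in 18.6% of all windows, so this number is not unusual. The 2 *IGF2BP2* windows held no octamer of the searched set. These positions are in GRCh38.p14 and the ChIP-Seq regions are in GRCh37, and no position was carried from one build to the other. Whether a given base of these windows lay inside a CIC region was therefore not measured, and the sequence beneath the 7 regions was not analysed here. The paper separately reported CIC on the *ETV1* promoter of PNT2 cells by PCR after chromatin immunoprecipitation. The sequences of its CIC primer pair lie within the first *ETV1* sequence shown.

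At *ETV1*, CIC was enriched at 3 separate places, and these regions ranked 1, 2 and 4 of the 178 by fold enrichment. Fold enrichment here is the authors' ratio of CIC reads to local background at the summit, with 1 added to both. The first *ETV1* region spanned chr7:13959750-13960262 (513 bp) with its summit at 13959893. Its fold enrichment was 13.5 and its q-value, the false discovery rate given by the peak caller, was 4.35e-25. The summit carried 46 CIC reads (exact Poisson 95% interval, 33.7 to 61.4). The background was 1.72 reads at the depth of the IgG library, to which the CIC reads scale as 35.7. This was the highest fold and the lowest p-value of the whole list.

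The second *ETV1* region spanned chr7:14020682-14021008 (327 bp) with its summit at 14020888. It had a fold enrichment of 12.3, a q-value of 2.26e-20 and 37 CIC reads (95% interval, 26.1 to 51.0) over a background of 1.40. The third spanned chr7:14030949-14031368 (420 bp) with its summit at 14031166. It had a fold enrichment of 10.5, a q-value of 7.92e-20 and 42 CIC reads (95% interval, 30.3 to 56.8) over a background of 2.18. The third region thus had more CIC reads than the second and a lower fold, because its background was higher. By p-value the 3 regions were the first 3 of the list, and by CIC reads they ranked 3, 5 and 4.

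The summits of the first and second *ETV1* regions were 61.0 kb apart and those of the second and the third 10.3 kb apart. Together they spanned 71.3 kb, which is shorter than the *ETV1* gene (100.2 kb in GRCh38.p14). The *ETV1* window held no other region, but chromosome 7 held 31 regions of the list. The nearest one below was 8.28 Mb from the first summit, with a fold enrichment of 4.03, and the nearest one above was 2.35 Mb from the third, with 4.70. The one above opened a run of further regions that reached chr7:28081217-28081477. Whether read density or DNA copy number along this stretch bears on the *ETV1* ranks was not tested. In the widely used gene map of GRCh37, the third region sits at the 5′ end of *ETV1*, which is transcribed from the minus strand, and the first and second lie inside the gene body. These places come from general knowledge of the map. No annotation of that build was used here, so no distance to a transcript start is given and exon and intron were not told apart.

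At *ETV4*, gene ID 2118, CIC was enriched at 1 place. The region spanned chr17:41623597-41624127 (531 bp), the widest of the 7, with its summit at 41623850. It had a fold enrichment of 6.45, a q-value of 4.39e-09 and 32 CIC reads (95% interval, 21.9 to 45.2). By CIC reads it ranked 11 of 178 and by p-value 21, whereas by fold it ranked 69. The background was set by 3 IgG reads at the summit itself, and it ranked 15 among the backgrounds of all regions. The nearest other region on chromosome 17 was 0.541 Mb above, with a fold enrichment of 6.04. The protein-coding neighbours of *ETV4* are *DHX8* and *MEOX1*, and the gene is 18.5 kb long in GRCh38.p14. In the general gene map of GRCh37 the region sits at the 5′ end of *ETV4*, with the same limits as for *ETV1*.

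In the *ETV5* window, gene ID 2119, CIC was enriched as a close pair and at 1 distant place. The pair comprised chr3:185825433-185825830 (398 bp), with its summit at 185825743, and chr3:185826856-185827385 (530 bp), with its summit at 185827020. Their summits were 1277 bp apart, and 1025 bp lay between the regions. In the general gene map of GRCh37 the pair sits at the 5′ end of *ETV5*. The first of the pair had a fold enrichment of 6.28, a q-value of 2.65e-06 and 23 CIC reads (95% interval, 14.6 to 34.5) over a background of 2.00. The second had a fold enrichment of 5.09, a q-value of 2.23e-05 and 25 CIC reads (95% interval, 16.2 to 36.9) over a background of 3 reads. It was the only one of the 7 regions with a fold enrichment below the median of the list. As at *ETV4*, both backgrounds were set by the few IgG reads at the summit, 2 for the first and 3 for the second.

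The distant region of this window spanned chr3:185514425-185514707 (283 bp) with its summit at 185514612, which was 311.1 kb below the nearer summit of the pair. That distance exceeds the length of *ETV5* (62.8 kb in GRCh38.p14), so this region and the pair cannot all lie within that gene. In the RefSeq order of protein-coding genes, *SENP2*, *IGF2BP2* and *TRA2B* precede *ETV5* and *DGKG* follows it. In the general gene map of GRCh37 the distant region lies in the body of *IGF2BP2*, which encodes an RNA-binding protein that acts on the stability and translation of mRNAs. It had the highest fold enrichment of the window, 8.38, with a q-value of 3.78e-09 and 23 CIC reads (95% interval, 14.6 to 34.5). The first of the *ETV5* pair had the same number of CIC reads, and the difference in fold between them came from the background, which was 1.25 here and 2.00 there. The next region of chromosome 3 outside the window was 27.7 Mb below, and no region of the list lay above.

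**Figure D1:**
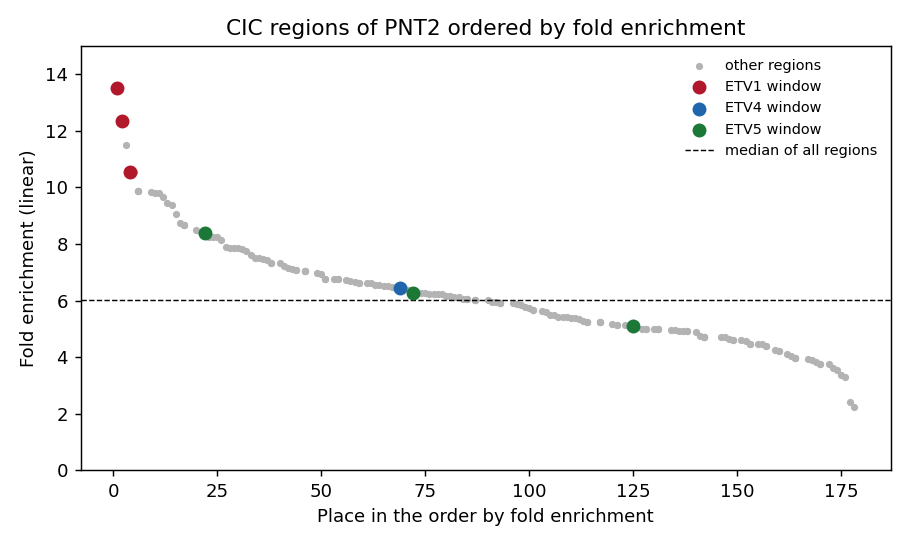
All 178 regions are ordered along the horizontal axis by fold enrichment (vertical axis, linear), with the regions of the 3 windows in colour, the others in grey and the median of all regions as a dashed line. The *ETV1* regions stand at places 1, 2 and 4, the *ETV5* window at 22, 72 and 125, and the *ETV4* region at 69.

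The 7 regions were set beside the whole list as a description. Their median fold enrichment was 8.38 (range, 5.09 to 13.5), and that of all 178 regions was 6.02 (range, 2.24 to 13.5). The median number of CIC reads at the summit was 32 for the 7 and 18 for all, and the median background was 2.00 and 1.40 reads. Their median width was 420 bp and that of all regions 282 bp, and the widest region of the list spanned 2383 bp. A q-value of 0.05 or less was found for 7 of the 7 and for 91.6% of all regions, and a q-value of 0.01 or less for 7 of the 7 and for 81.5% of all, so the q-value limits set the 7 little apart. A fold that reached the median of the list was found for 6 of the 7 (50% of all regions, by construction). A fold of 10 or more was found for 3 of the 7, all at *ETV1*, and for 2.81% of all regions, or 5 of 178.

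**Figure D2:**
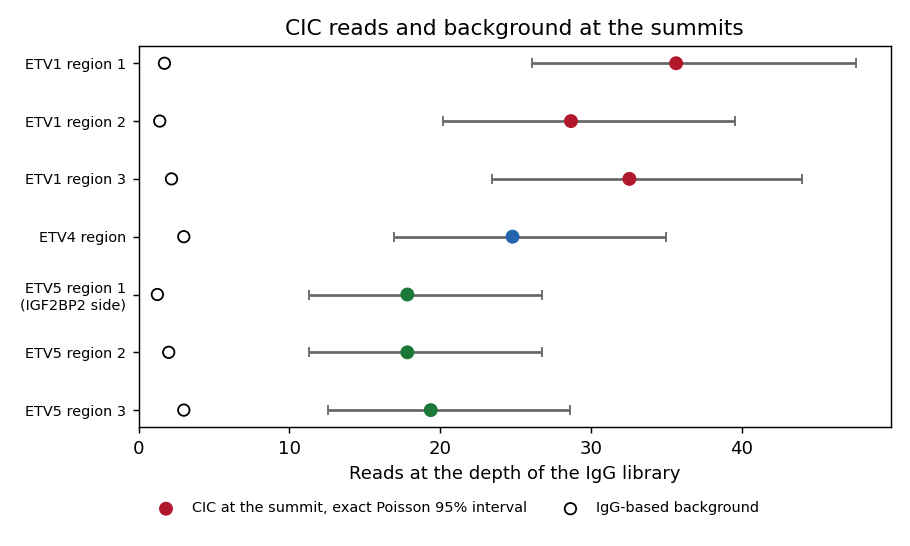
For each of the 7 regions the filled point gives the CIC reads at the summit, scaled to the depth of the IgG library, with the exact Poisson 95% interval, and the open circle gives the IgG-based background in the same unit (regions are numbered by position, so ETV5 region 1 is the distant one and regions 2 and 3 are the pair). The CIC reads are 17.8 to 35.7 and the backgrounds 1.25 to 3, and the *ETV1* regions have the 3 highest read numbers.

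CIC reads at the summit were compared between regions by their quotient with an exact binomial 95% interval, a comparison within 1 library that covers counting error only and was added after the values were seen. These reads are not set against IgG, and DNA copy number and mappability at the regions were not measured. Chromosome 7 held 31 regions of the list, chromosome 3 held 12 and chromosome 17 held 10. The first *ETV1* region had 2.00 times the CIC reads of the first of the *ETV5* pair (95% interval, 1.19 to 3.46) and 1.84 times those of the second (1.11 to 3.13). Against *ETV4* the quotient was 1.44 (0.896 to 2.33), an interval that includes 1. Among the *ETV1* regions the first had 1.24 times the reads of the second (0.789 to 1.97) and 1.1 times those of the third (0.705 to 1.71), and the order of these 3 was not resolved at this depth. Of the 21 pairs among the 7 regions, 6 had an interval that left out 1, with no adjustment for the number of pairs. The share over pairs of all regions was not computed, so this count does not set the 7 regions apart from the list. Each of the 6 pairs set the first or the third *ETV1* region against a region of the *ETV5* window.

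Each background also rests on a count of IgG reads, which widens the interval of the enrichment. With nothing added, the ratio of CIC to background was 20.8 at the first *ETV1* region (exact 95% interval, 10.6 to 44.5), 20.4 at the second (9.68 to 48.1) and 14.9 at the third (7.98 to 29.6). These intervals take the backgrounds as 11, 9 and 14 IgG reads over 1 kb, although the same values could be 110, 90 and 140 reads over 10 kb. On the second reading the interval at the first region was 14.4 to 29.6. At *ETV4* the ratio was 8.27 (2.59 to 42.2). In the *ETV5* window it was 14.3 at the distant region (6.17 to 36.9), 8.91 at the first of the pair (2.20 to 78.0) and 6.46 at the second (1.97 to 33.4). Every one of these intervals lay above 1, which peak calling selects for.

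When the quotient of 2 ratios was given an exact conditional interval that counts the IgG reads too, 0 of the 21 pairs left out 1 under either reading of the background. These intervals take the window of each background as given and leave out how the peak caller chose it. At *ETV4* and in the *ETV5* pair that window held only 2 or 3 IgG reads. The first *ETV1* region had 2.51 times the ratio of *ETV4* (95% interval, 0.421 to 10.7) and 3.22 times that of the second of the *ETV5* pair (0.532 to 13.9). A difference in enrichment between the 3 genes was thus not detectable at this depth once the IgG counting error was included, and these wide intervals do not show that the genes were bound alike.

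**Figure D3:**
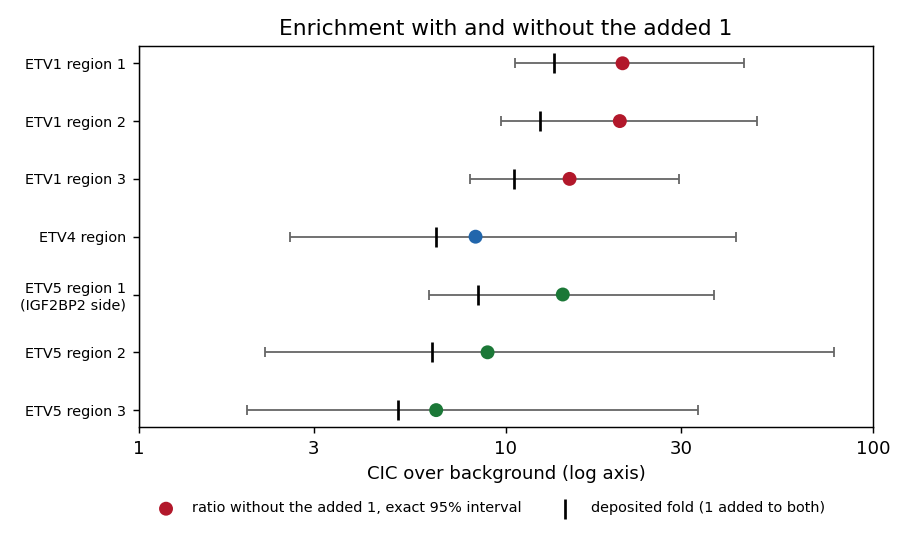
For each of the 7 regions the point gives CIC over background with nothing added, with its exact 95% interval, on a log axis, and the tick gives the deposited fold enrichment. The deposited fold lies below the ratio in every region, and the widest interval, 2.20 to 78.0, belongs to the first of the *ETV5* pair.

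*ETV1* held at least 1 of the first 3 places by fold, p-value, CIC reads and the ratio with nothing added, whereas the place of *ETV4* moved widely between them. By CIC reads only mitochondrial regions stood above *ETV1*, with 95 and 85 reads and fold enrichments of 2.41 and 2.24. Ranked by the ratio without the added 1, the *ETV1* regions stood at 2, 4 and 21 of 178. *ETV4* stood at 120 by that ratio and at 11 by CIC reads. The regions of the *ETV5* window stood at 24, 100 and 149 by the ratio and at 38, 38 and 24 by CIC reads. The source of the background moved with these places. It came from the IgG reads at the summit in 3 of the 7 regions, at *ETV4* and in the *ETV5* pair, and in 32.0% of all regions. Over all regions the median fold enrichment was 5.01 where the background came from the summit, 6.04 where it was read as 1 kb, as in the other 4 of the 7 regions, 6.49 where it came from 10 kb and 7.04 where it was the genome-wide rate. The median background ran the other way, at 2.00, 1.40, 1.25 and 0.905 reads in the same order. Since the background divides the fold, these 2 orders are tied by construction. The part of the background source in the order of the genes was not tested.

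Neighbours in the order by fold show how finely the regions are spaced. Between the second and the third *ETV1* region stood only chr15:99164359-99164928, with a fold enrichment of 11.5, and just below the third stood chr15:69135810-69136509, also with 10.5. *ETV4* at 6.45 stood between chr3:58512546-58512766 (6.45) and chr1:47696486-47697639 (6.45). The distant region of the *ETV5* window at 8.38 stood between chr20:45524039-45526421 (8.43) and chr22:38597830-38597992 (8.26). The first of the *ETV5* pair stood below chr13:100625590-100625932 (6.36) and shared its fold of 6.28 with chr1:212781888-212782063. The second shared its 5.09 with chr11:69064792-69065054 and stood above chr2:91995882-91996188 (5.01).

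The 7 regions also differed in shape. Summits lay near the middle of the region at *ETV4* (47.8% of the width from its lower edge) and at the third *ETV1* region (51.9%). They lay off centre at the first *ETV1* region (28.1%), at the second (63.3%), at the distant region of the *ETV5* window (66.4%) and in the *ETV5* pair. Within that pair the summits lay at 78.1% and 31.1%, each toward the edge that faces the other region.

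**Figure D4:**
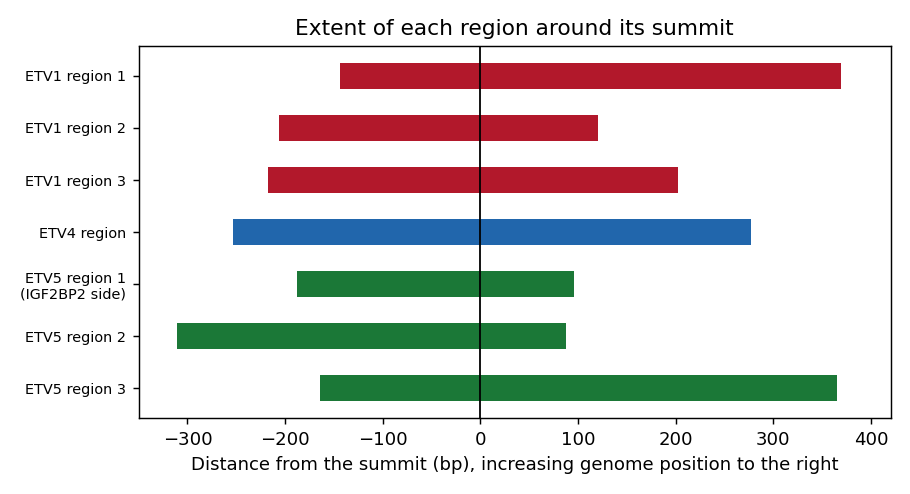
Each bar gives the extent of 1 region around its summit (vertical line at 0), in bp, with genome position increasing to the right. Widths run from 283 bp at the distant region of the *ETV5* window to 531 bp at *ETV4*, and the bars of the *ETV5* pair reach out in opposite directions from their summits.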

How the data were processed

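Per the labels, fixation was in 1% formaldehyde, chromatin was sonicated, 10 ng of DNA was amplified over 13 cycles, and fragments of 250 to 450 bp were kept. The study's methods name an enzymatic chromatin kit instead. The submitters' processing notes name bcl2fastq 2.17, Trimmomatic 0.33, Bowtie 1.1.2, MACS2 2.1.0 and the build hg19. The study gives its 178 CIC peaks a false discovery rate limit of 0.05. The deposited q-value was 0.05 or less in only 163 of the 178 regions. Other peak settings, duplicate handling and filters on problem regions are not given in the sources used here.

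The fold enrichment that the authors deposited is the linear ratio (CIC + 1) / (background + 1) at the summit. The authors also deposited the −log10 of the p-value and of the q-value. Their deposited score was used for nothing, since it equals the −log10 q-value multiplied by 10 and cut to a whole number in all 178 regions.

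CIC reads and background were recovered from each fold and p-value, the latter read as a Poisson tail. A scale was searched between 0.3 and 1 with a step of 0.0001. The largest scale that fitted, 0.775, gave whole CIC reads in 178 of 178 regions, within 8.1e-05 of a read, so the CIC library was 1.29 times as deep. Backgrounds fitted a fragment length of 156 bp in 99 of 99 regions. Values open to a 1 kb or a 10 kb window were read as 1 kb. The recovery was tested on simulated data. Total library depth is unknown. Reads carry no molecular identifiers, so intervals cover counting error only. They leave out that each summit was picked for its height, and they take the window of each background as given.

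Members and lists were chosen with earlier results of these data known, and each antibody had 1 library, so no p-value of CIC against IgG was computed. Pairs of regions were compared by exact 95% intervals within the libraries, added after the values were seen. Every region in the 3 windows is named, with its neighbours in the order by fold. Python 3.11.15, SciPy 1.17.1 and pandas 2.3.3 were used.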

Additional observations from a re-analysis of the deposited data

How the results depend on the processing

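The numbers of regions at *ETV1*, *ETV4* and *ETV5* (3, 1 and 3) were the same with a q-value of 0.05 or 0.01 or less, with any overlapping base, with windows widened by 100 kb and with regions joined within 1 kb. At or above the median fold the *ETV5* number was 2, and joined within 2 kb, an alternative chosen after seeing the data, it was also 2. The highest rank at *ETV1* was 1 by fold and by p-value, 2 by the ratio without the added 1 and 3 by CIC reads, behind mitochondrial regions only. At *ETV4* it was 69 by fold, 21 by p-value, 120 by the ratio and 11 by CIC reads. In the *ETV5* window it was 22, 20, 24 and 24. The median fold of 8.38 became 14.3 without the added 1, which raises every value by construction, and stayed at 8.38 with each gene counted once. Depth limits the order of the regions, since backgrounds rest on as few as 2 IgG reads. The alternatives on CIC motifs in the regions, on promoters and on other ETS genes were not run, because no genome or annotation of GRCh37 was used here. No paired analysis was possible because there was 1 library for each antibody.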
